A study of Mus musculus with 7 samples.

Results

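miR-203 and miR-205 are microRNAs of the epidermis, and they are described here in the wound edge of mouse skin. They are 2 of the 306 miRNA assays on a real-time PCR plate and were chosen by name: the assays whose names, without species prefix, read miR-203 and miR-205. The plate was run on RNA of the wound edge, collected from C57Bl6 mice on day 3 after wounding. There were 4 non-ischemic samples and 3 ischemic ones, the latter from wounds placed in a bipedicle flap, skin cut free along both sides and joined to the body by its ends, which restricts its blood supply. No genotype, transgene or drug is named for either group, and the labels do not give the age or sex of the mice or say whether each sample came from its own animal. The p-values set the difference between groups against the spread among these samples. The samples may not be independent animals, and some of that spread may be technical.

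MicroRNAs are short RNAs that pair through a seed, bases 2 to 8 of the mature strand, with sites in messenger RNAs and lower their output. In mouse and human epidermis miR-203 rises as keratinocytes leave the basal layer and differentiate, and it represses p63, a transcription factor that keeps basal cells proliferating. miR-205 is abundant in the basal layer and the hair follicle. It acts on the lipid phosphatase SHIP2 in human keratinocytes and, together with the miR-200 family, on ZEB1 and ZEB2, repressors of the epithelial state.

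The assay names give no arm and the files no assay sequence. The assays are taken here to read miR-203-3p and miR-205-5p, the strands that these names usually stand for. They are shown in their mouse form from RefSeq (GRCm38.p6), with the seed in capitals, since the seed sets which messages each can pair with.
miR-203 (miR-203-3p): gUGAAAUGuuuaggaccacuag
miR-205 (miR-205-5p): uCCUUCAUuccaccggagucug
Aligned from the 5′ end without gaps, the strands have the same base at 3 of 22 positions, and at 0 of the 7 seed positions. Of the 1738 mature mouse sequences in the RefSeq table, 1 has the seed of miR-203 and 1 that of miR-205, each being the miRNA itself. The matching site in a message would read CAUUUCA for miR-203 and AUGAAGG for miR-205.

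The precursors also differ in layout. The mature strand, in capitals, lies in the 3′ arm of the miR-203 hairpin and in the 5′ arm of the miR-205 hairpin.
Mir203: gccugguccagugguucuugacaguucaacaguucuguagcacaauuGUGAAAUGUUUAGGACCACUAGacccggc
Mir205: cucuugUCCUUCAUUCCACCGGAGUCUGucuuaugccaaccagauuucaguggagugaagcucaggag
Mir203 lies at chr12:112130880-112130955 on the plus strand, and the RefSeq gene Gm51289 overlaps it. Mir205 lies at chr1:193507463-193507530 on the minus strand, inside the long noncoding host gene Mir205hg. The miR-203 assay carries the mouse prefix and the miR-205 assay the human one.

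Levels are read from the threshold cycle (Ct), the PCR cycle at which product is first seen, so that a lower Ct means more RNA and 1 cycle is 1 log2 unit if product doubles each cycle. A Ct below 35 was taken as detection. Between 94 and 103 of the 306 miRNAs were detected per non-ischemic sample and between 91 and 106 per ischemic sample. Ischemic sample 3 stood apart from the rest, with a summed level of leukocyte miRNAs at -4.58 log2 units from the non-ischemic mean, so values are also given without it. miR-203 was detected in 7 of 7 samples and miR-205 in 6 of 7. Ranked by Ct among the 306 miRNAs, miR-203 held rank 39, 45, 45 and 46 in non-ischemic samples 1 to 4 and rank 66, 74 and 33 in ischemic samples 1 to 3. miR-205 came later on the plate, at rank 79, 66, 102 and 79 in non-ischemic and 76, 76 and 79 in ischemic samples. Assays can differ in efficiency, so the order of assays on a plate is only roughly an order of amounts.

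miR-203 was read at Ct values of 30.99, 31.56, 31.55 and 31.16 in non-ischemic samples 1 to 4 and at 33.16, 33.36 and 31.29 in ischemic samples 1 to 3. Ischemic samples 1 and 2 came later than every non-ischemic sample, while ischemic sample 3 fell among the non-ischemic ones, so that the groups overlapped, whereas 13 of the 103 tested miRNAs (12.6%) had every ischemic sample below every non-ischemic one. Relative to 5S rRNA, the abundant RNA that the authors used as reference, its log2 level was -16.66 ± 0.40 (SD, n = 4) in non-ischemic and -18.08 ± 1.17 (SD, n = 3) in ischemic samples. Measured from the non-ischemic mean, ischemic samples 1 to 3 stood at -1.93, -2.24 and -0.08 log2 units, and non-ischemic samples between -0.42 and 0.34. The mean was 2.66-fold lower in ischemic samples, a log2 difference of -1.41 ± 0.56 (SE), with a 95% confidence interval from -2.68 to -0.15. In bulk tissue, fewer cells of a type and less RNA per cell cannot be told apart.

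In limma over the 103 miRNAs detected in at least 3 samples, miR-203 had an unadjusted p of 0.0328 and a Benjamini-Hochberg adjusted p of 0.219, and was not called. At an adjusted p of 0.05, 0 of the 103 were called (0%). At an unadjusted p under 0.05 there were 19 (18.4%), of which 14 (13.6%) were lower. The median difference of all 103 was -0.35, with 79 lower, so that miR-203 stood at -1.06 log2 units relative to the plate as a whole, a value that any reference subtracted from all assays alike leaves as it is. It held rank 10 from the lowest difference and rank 14 by p.

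**Figure D1:**
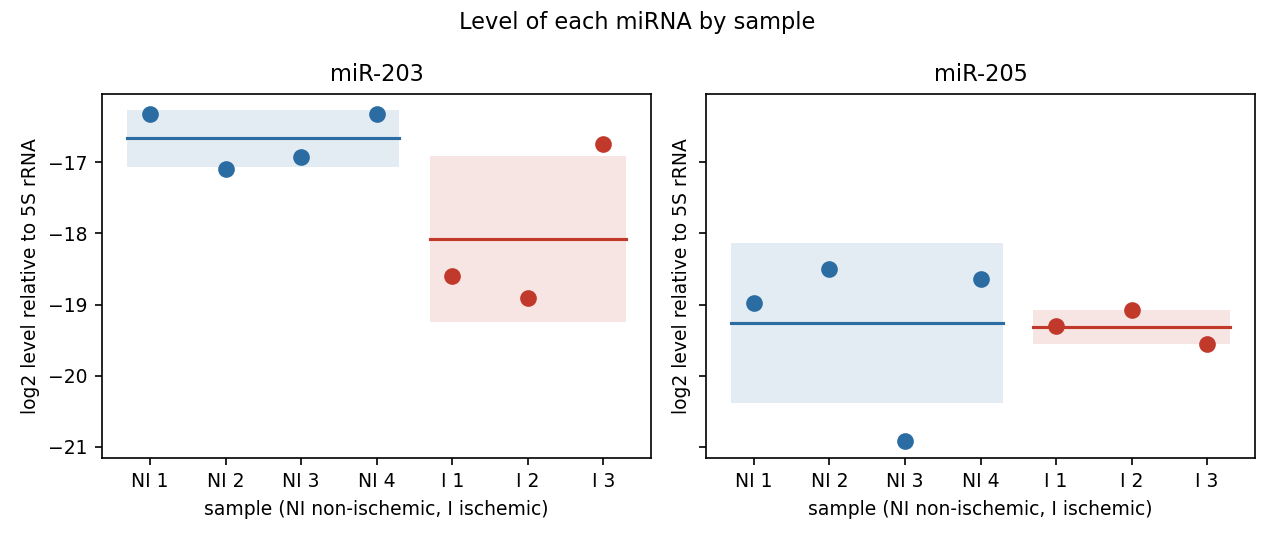
Level of miR-203 (left) and miR-205 (right) in each sample as log2 relative to 5S rRNA, with non-ischemic samples (NI) in blue and ischemic samples (I) in red. Lines are group means and shaded bands 1 SD. Ischemic samples 1 and 2 stand below all non-ischemic samples for miR-203, and non-ischemic sample 3 stands lowest for miR-205.

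Ischemic sample 3 decided whether miR-203 was called. Without it, a comparison of 2 with 4 samples, the mean of miR-203 was 4.23-fold lower (difference -2.08 ± 0.39 SE, 95% confidence interval -2.95 to -1.21, adjusted p = 0.0146 in limma). miR-203 was then 1 of 7 lower calls among 103 (6.80%), at rank 3 both from the lowest difference and by p. Every sample was left out in turn, but ischemic sample 3 was singled out on values of these same data. It is also the ischemic sample with miR-203 near the non-ischemic mean, so leaving it out removes the contrary value. In ischemic sample 3 itself, miR-203 was 0.45 log2 units above the median deviation of the tested miRNAs, at rank 70 of 103 from the lowest. In ischemic samples 1 and 2 it stood at -1.72 and -2.15 relative to that median, at rank 12 and 3. The mean of ischemic samples 1 and 2 was at -2.01 log2 units relative to ischemic sample 3 and at -2.08 relative to the non-ischemic mean. Over the plate, 28 of 103 miRNAs (27.2%) had ischemic samples 1 and 2 below every non-ischemic sample, and in 10 of them, miR-203 included, ischemic sample 3 lay within the non-ischemic range.

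Leaving out other samples changed the difference of miR-203 less. It ran from -1.55 to -1.30 with each non-ischemic sample left out in turn, and was -1.16 without ischemic sample 1 and -1.002 without ischemic sample 2. Relative to the median of the plate, miR-203 was at -0.74 without ischemic sample 1, at rank 12 from the lowest. Without ischemic sample 2 it was at -0.50, at rank 24. With another reference and all 7 samples, the difference was -1.57 against the snoRNAs, -1.63 against 18S, -1.08 against the global mean of the miRNAs and -1.04 after quantile normalization. None of these passed an adjusted p of 0.05 in limma, and all had the same sign.

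**Figure D2:**
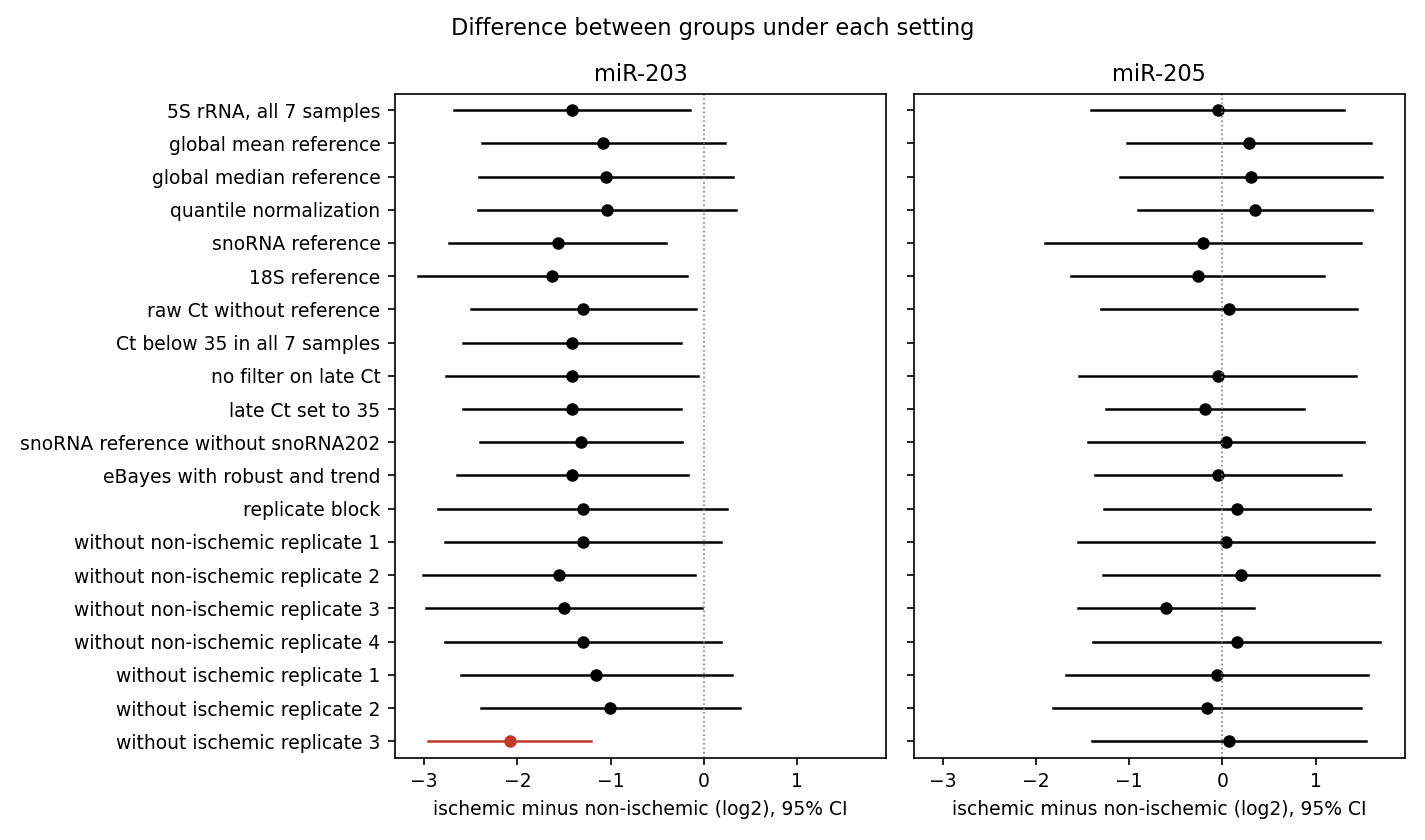
Difference of miR-203 (left) and miR-205 (right) between ischemic and non-ischemic samples on the log2 scale under each setting, with 95% confidence intervals from limma and the settings called at an adjusted p of 0.05 in red. miR-203 is below 0 in every setting shown and is called only without ischemic sample 3, at -2.08, while miR-205 lies between -0.60 and 0.35. miR-205 has no value where a Ct below 35 in all 7 samples was required.

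miR-205 was read at Ct values of 33.64, 32.97, 35.55 and 33.48 in non-ischemic samples 1 to 4 and at 33.87, 33.54 and 34.11 in ischemic samples 1 to 3. Non-ischemic sample 3 was the latest of all 7 and the only sample past the detection limit. By Ct, the 3 ischemic samples came before it and after the other non-ischemic samples, except that ischemic sample 2 came before non-ischemic sample 1. The log2 level was -19.26 ± 1.12 (SD, n = 4) in non-ischemic and -19.31 ± 0.24 (SD, n = 3) in ischemic samples. The log2 difference was -0.05 ± 0.60 (SE), with a 95% confidence interval from -1.41 to 1.31 and an adjusted p of 0.957 in limma. That interval spans falls and rises of more than 2-fold. The difference lay 0.30 above the median of the plate, and its sign depended on the reference, at -0.27 against 18S and -0.21 against the snoRNAs but 0.28 against the global mean and 0.35 after quantile normalization.

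The near-zero mean difference of miR-205 rested on non-ischemic sample 3. In that sample miR-205 stood at -1.66 log2 units relative to the non-ischemic mean and at -1.51 relative to the median deviation of the tested miRNAs, at rank 3 of 103 from the lowest. It was 1 of 5 miRNAs (4.85%) with the lowest of all 7 values in that sample, and 1 of 2 that lay at least 1 log2 unit under every other sample there. Every sample was left out in turn, but this one was singled out on its low miR-205 in these same data. Leaving it out thus removes the contrary value and narrows the spread. Without non-ischemic sample 3, the level in the 3 remaining non-ischemic samples was -18.71 ± 0.25 (SD), and all 3 ischemic samples lay below all of them. The difference was then -0.60 ± 0.41 (SE; 1.52-fold lower), with a 95% confidence interval from -1.55 to 0.34 and an adjusted p of 0.569 in limma, and was not called. Ischemic samples lay below all non-ischemic ones in 17 of 103 miRNAs (16.5%) in that comparison. Relative to the median difference of the plate, it was at -0.17 and thus near the middle, at rank 39 from the lowest. Setting every Ct above 35 to 35 gave -0.19 ± 0.48 (SE). Without ischemic sample 3, the sample that mattered for miR-203, miR-205 was at 0.07 ± 0.65 (SE).

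**Figure D3:**
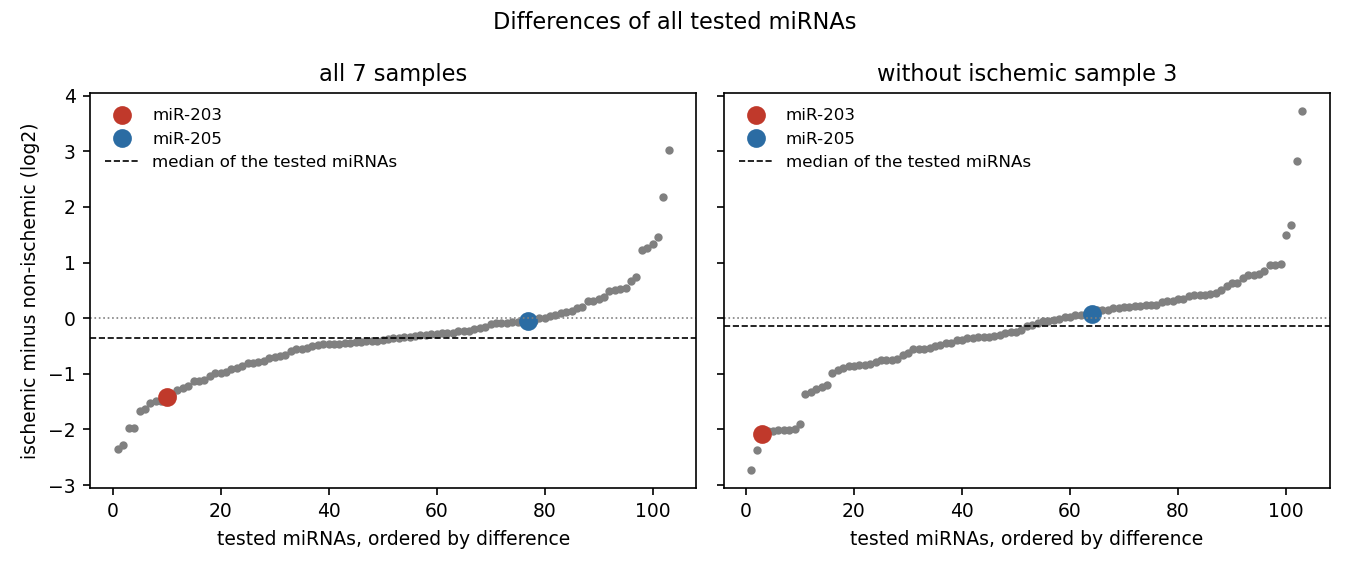
Differences between ischemic and non-ischemic samples (log2) of the 103 tested miRNAs in rising order, with all 7 samples (left) and without ischemic sample 3 (right). The dashed line is the median of the tested miRNAs. miR-203 moves from rank 10 to rank 3 from the lowest, while miR-205 stays in the upper part of the order at rank 77 and 64.

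The groups also differed in which member varied. The SD of miR-203 was 0.40 in non-ischemic samples, at rank 42 of 103 from the smallest, and 1.17 in ischemic samples, at rank 79. miR-205 had the reverse order, with an SD of 1.12 and rank 99 in non-ischemic and 0.24 and rank 11 in ischemic samples. The median SD of the tested miRNAs was 0.48 and 0.79. In each case 1 sample gave the wide spread, ischemic sample 3 for miR-203 and non-ischemic sample 3 for miR-205.

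The level of the differentiation miRNA relative to the basal miRNA was read within each sample as the Ct of miR-205 minus the Ct of miR-203, which needs no reference RNA. It was 2.66, 1.41, 3.999 and 2.32 log2 units in non-ischemic samples 1 to 4 and 0.70, 0.18 and 2.82 in ischemic samples 1 to 3. miR-203 was thus read earlier than miR-205 in all 7 samples, by 2.66-fold to 6.31-fold in non-ischemic samples 1, 2 and 4, by 1.63-fold and 1.13-fold in ischemic samples 1 and 2, and by 7.05-fold in ischemic sample 3, if both assays are equally efficient. No fold is given for non-ischemic sample 3, where miR-205 was past the detection limit and its value of 3.999 rests on a late Ct. Ischemic samples 1 and 2 were the lowest of the 7, and ischemic sample 3 lay within the non-ischemic range.

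The mean was 2.60 ± 1.07 (SD, n = 4) in non-ischemic and 1.23 ± 1.40 (SD, n = 3) in ischemic samples, a difference of -1.36. This was within the spread of the samples (p = 0.200 in an exact two-sided permutation test over 35 splits, where 0.0286 is the smallest possible). The pair was chosen with earlier results of these data known. Without ischemic sample 3 the difference was -2.15 (exact permutation p = 0.133, smallest possible 0.0667), and without non-ischemic sample 3 it was -0.89 (exact permutation p = 0.400, smallest possible 0.100). Without ischemic sample 2 it was -0.84 (exact permutation p = 0.467). That the 2 miRNAs responded differently to ischemia was therefore not shown by this test. Without ischemic sample 3 miR-203 was called and miR-205 was not, but this is no test of a difference between them.

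**Figure D4:**
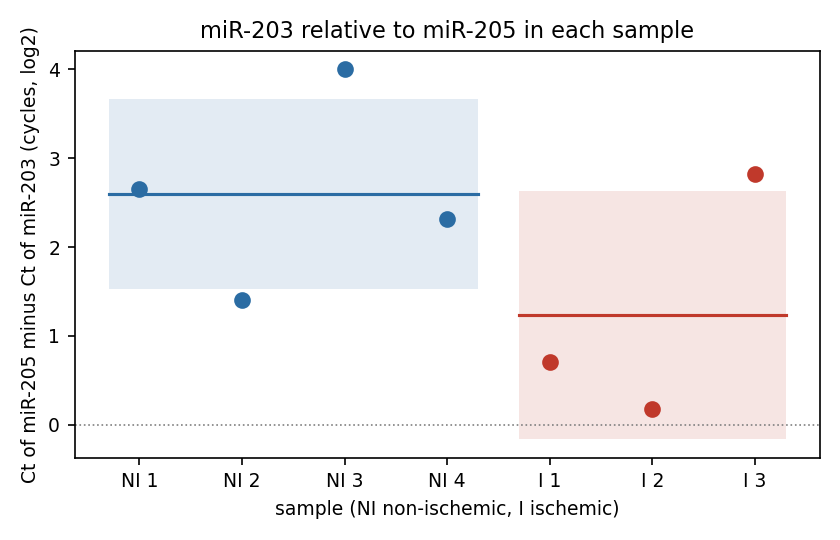
Ct of miR-205 minus Ct of miR-203 in each sample, in cycles, so that higher values mean more miR-203 relative to miR-205. Lines are group means, bands 1 SD and the dotted line equal Ct. Ischemic samples 1 and 2 lie at 0.70 and 0.18, below all other samples, and ischemic sample 3 at 2.82.

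The authors' deposited table of group means gives, as ratios to 5S rRNA, 9.90e-06 for miR-203 in non-ischemic and 4.57e-06 in ischemic samples. The corresponding fold in the authors' deposited table is 0.461 for miR-203 and 0.818 for miR-205. These are arithmetic means of linear ratios, which weight high samples. The ratio of miR-203 was 2.53e-06, 2.04e-06 and 9.13e-06 in ischemic samples 1 to 3, so that ischemic sample 3 supplied 66.6% of their sum. For miR-205 the ratios were 1.93e-06, 2.70e-06, 5.04e-07 and 2.44e-06 in non-ischemic samples 1 to 4, and non-ischemic sample 3 supplied 6.65% of their sum. The mean of log2 levels gave folds of 0.376 and 0.965 for the same samples.

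The miR-200 family, epithelial miRNAs that repress ZEB1 and ZEB2, gave the nearest comparison. Of its 5 assays 3 were tested, and all 3 had a lower mean in ischemic samples, with 0 passing an adjusted p of 0.05 (0% of the plate) and a median difference of -0.49 against -0.35 for all tested miRNAs. With all 7 samples miR-200b was at -1.98 ± 0.50 (SE, adjusted p = 0.12 in limma). Its ischemic samples 1 to 3, at -2.18, -2.55 and -1.20, all lay below its lowest non-ischemic sample at -0.73, as in 13 of 103 miRNAs (12.6%). Without ischemic sample 3 the family median was -0.85 against -0.14. Of the 3, miR-200b was then called lower (-2.37 ± 0.47 SE, adjusted p = 0.0176 in limma), where 7 of 103 miRNAs (6.80%) were called lower. miR-200a and miR-141 had a Ct above 35 in all 7 samples. Within samples, miR-203 exceeded miR-200b by 1.22, 1.002, 1.60 and 0.67 log2 units in non-ischemic and by 1.38, 1.43 and 2.25 in ischemic samples. The gap was between 0.67 and 1.60 in 6 samples and widest in ischemic sample 3.

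miR-205 stood differently to miR-200b. Relative to miR-200b it was at -1.44, -0.41, -2.40 and -1.65 in non-ischemic and at 0.68, 1.25 and -0.57 in ischemic samples, with an overlap only between non-ischemic sample 2 and ischemic sample 3. Relative to miR-200c, the member with the lowest Ct, it was at -2.95, -3.21, -4.85 and -3.40 in non-ischemic and at -3.66, -2.87 and -3.38 in ischemic samples, where the groups overlapped and non-ischemic sample 3 was lowest. miR-203 relative to miR-200c was at -0.30, -1.80, -0.85 and -1.08 in non-ischemic and at -2.95, -2.69 and -0.56 in ischemic samples. Ischemic samples 1 and 2 were again the lowest. Against miR-429, detected in 5 of 7 samples, the groups overlapped for both members. miR-203 ranged from 2.13 to 3.47 in non-ischemic and from 1.25 to 2.49 in ischemic samples. miR-205 ranged from -1.47 to 2.06 and from -0.33 to 1.18.

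Other miRNAs known from keratinocytes were taken as a list of 8, of which 6 were tested. All 6 had a lower mean in ischemic samples and 0 passed, with a median of -0.59, where 79 of all 103 were lower, 0 passed and the median was -0.35. Without ischemic sample 3 there were 5 lower and 0 passing, with a median of -0.81, where 58 of all 103 were lower, 7 were called lower (6.80%) and the median was -0.14. miR-31, which is induced in keratinocytes of the wound edge and promotes their migration, differed by -2.28 ± 0.71 (SE, adjusted p = 0.189 in limma), with its lowest value in ischemic sample 3, at -4.12 from the non-ischemic mean, where miR-203 was at -0.08. Without that sample miR-31 was at -1.36 ± 0.43 (adjusted p = 0.102 in limma). miR-99a, of a family that restrains mTOR, was at -0.72 ± 0.50 and, without ischemic sample 3, at -1.27 ± 0.38 (adjusted p = 0.0822 in limma), and miR-214, known in mouse hair follicles, at -1.53 ± 0.55. miR-24, linked to keratinocyte differentiation, was at -0.28 ± 0.35, miR-125b, known in mouse hair follicle stem cells, at -0.06 ± 0.42, and miR-21, which is induced in wounds, at -0.46 ± 0.77. miR-125b was at -0.32 without ischemic sample 3, and miR-21 was the member that turned, to 0.57 ± 0.44. miR-184 and the p53 target miR-34a had a Ct above 35 in all samples.

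Across the 7 samples, the profile of miR-203 was compared with those of the other 75 miRNAs detected in all of them, each centred on its own mean, by the root mean square difference in log2 units. The nearest was miR-127, an imprinted miRNA of the Dlk1-Dio3 cluster, at 0.20, followed by miR-99a at 0.38, miR-200b at 0.46 and let-7b, of a family linked to differentiation, at 0.48. The median over all 75 was 1.01, and the distance between miR-203 and miR-205 was 1.23. The deviations of miR-127 from the non-ischemic mean were -2.06, -1.96 and 0.23 in ischemic samples 1 to 3, and those of miR-99a were -1.15, -1.40 and 0.38. Both thus share with miR-203 low values in ischemic samples 1 and 2 and a value within the non-ischemic range in ischemic sample 3. miR-200b and let-7b were below the non-ischemic mean in ischemic sample 3 as well, at -1.20 and -0.53. Distances include what all assays of a sample share, such as the 5S rRNA reading.

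The mature sequences of these 4 miRNAs, again from RefSeq with the seed in capitals, are set beside that of miR-203 (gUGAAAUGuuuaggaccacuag) to show that none carries its seed.
miR-127 (miR-127-3p): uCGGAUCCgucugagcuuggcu
miR-99a (miR-99a-5p): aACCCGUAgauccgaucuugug
miR-200b (miR-200b-3p): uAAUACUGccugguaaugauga
let-7b (let-7b-5p): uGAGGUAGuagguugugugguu
Mir127 and Mir203 lie on the same chromosome, at a distance of 2538 kb, and the other 3 genes on chromosomes 16, 4 and 15.

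The profiles nearest to miR-205 lay farther off. Among 76 miRNAs these were miR-374-5p at 0.60, miR-92, of the miR-17-92 clusters, at 0.61, miR-200c at 0.62 and let-7g at 0.62, against a median of 0.90. In non-ischemic sample 3, where miR-205 was at -1.66, these 4 were at -0.69, -0.41, -0.41 and -0.48. Their differences between groups were -0.33, 0.10, -0.35 and -0.40, none called in limma, and that of miR-374-5p turned to 0.07 without ischemic sample 3.

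**Figure D5:**
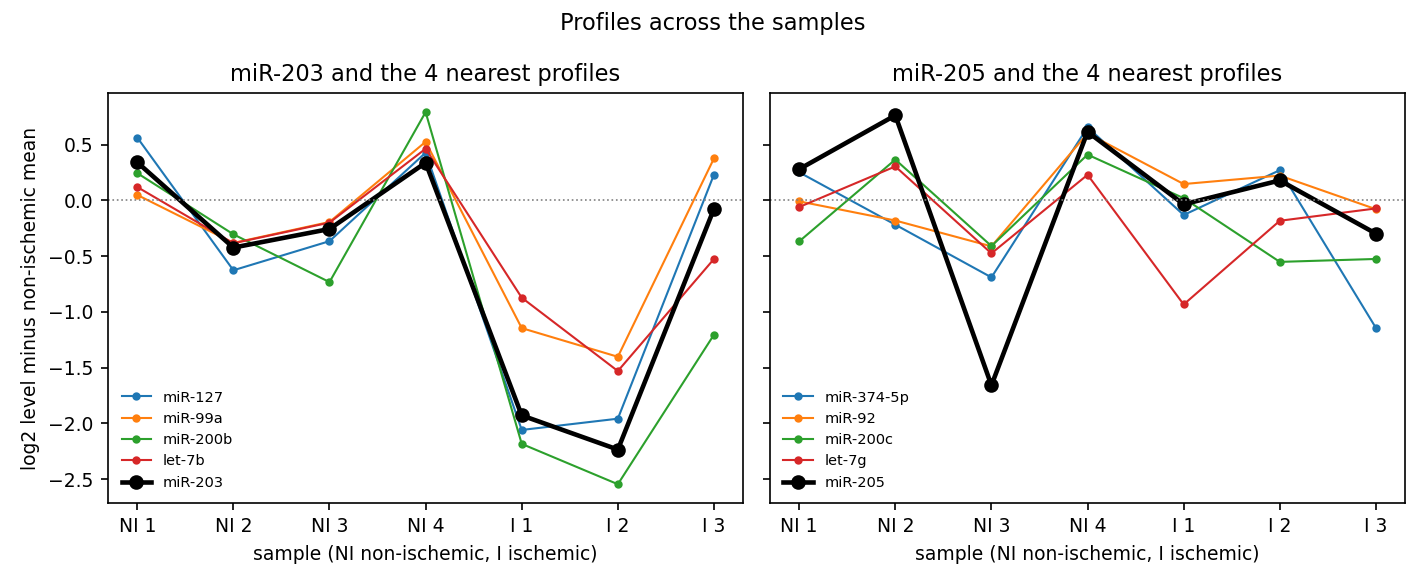
Log2 level in each sample minus the non-ischemic mean for miR-203 (left) and miR-205 (right), in black, and for the 4 miRNAs with the nearest profile. miR-203 and miR-127 run together through all 7 samples, and the dip of miR-205 to -1.66 in non-ischemic sample 3 is not matched in depth by its nearest profiles.

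Markers of other cells moved between the samples beside these results. The summed level of the muscle fibre miRNAs (4 of 4 tested) lay between -0.21 and 0.21 from the non-ischemic mean in non-ischemic samples and at 0.39, 1.14 and 2.25 in ischemic samples 1 to 3. Of these, miR-206 did not follow the order of the sum, at -0.63, 1.0015 and 0.64 in ischemic samples 1 to 3. The summed leukocyte miRNAs (3 of 3 tested) lay between -0.17 and 0.48 in non-ischemic samples and at -0.22, 0.36 and -4.58 in ischemic samples 1 to 3. The ischemic sample with miR-203 at its non-ischemic level thus also had the highest muscle sum and the lowest leukocyte sum. The summed erythroid miRNAs (2 of 2 tested) lay between -1.40 and 1.10 in non-ischemic samples, where miR-451 had a Ct above 35 in all 4, and at 3.22, 2.13 and 2.65 in ischemic samples. Of these, miR-486 alone overlapped between the groups, from -2.15 to 1.95 in non-ischemic and from 1.41 to 3.55 in ischemic samples. The summed endothelial miRNAs (2 of 2 tested) ranged from -0.26 to 0.35 and from -0.62 to 0.15 in the 2 groups. The 2 members did not run together. In ischemic samples 1 to 3 miR-126 was at -0.91, -0.08 and -0.37 and miR-126* at 0.26, 0.56 and -1.005.

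The fibroblast list (1 of 3 tested, miR-214) ranged from -0.41 to 0.36 in non-ischemic and from -2.44 to -0.20 in ischemic samples, and smooth muscle (1 of 2 tested, miR-145) from -0.45 to 0.33 and from -0.38 to 0.54. The same miR-214 assay is also in the list of miRNAs known from keratinocytes, so it does not mark either cell type alone. Of the neural miRNAs, miR-124a ranged from -0.25 to 0.47 and from -2.60 to -0.97, and miR-9 gave no product in any sample. The melanocyte miRNA miR-211 had a Ct above 35 in all samples. In non-ischemic sample 3, the sample with low miR-205, the muscle, leukocyte and endothelial sums were at -0.09, -0.17 and 0.03. Members of the leukocyte sum differed there, with miR-223 at -0.16, miR-142-3p at -0.97 and miR-142-5p at -1.06. So did the endothelial ones, with miR-126 at -0.38 and miR-126* at 0.61. Both erythroid miRNAs were past the detection limit there, and also in non-ischemic sample 4, where miR-205 was at 0.62. The epithelial sum, carried by miR-200c, was at -0.46 in non-ischemic sample 3, and at -0.26, -0.79 and -0.59 in ischemic samples 1 to 3. The part of these cell types in the levels of miR-203 and miR-205 was not tested.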

How the data were processed

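Mature miRNAs were measured in 7 samples by real-time PCR on a 7900HT instrument after reverse transcription of 500 ng RNA with looped primers, per the labels. The authors deposited raw Ct values (a score per assay, 40 where no product was seen), log2 levels, in which the assay's Ct was found to be subtracted from that of 5S rRNA, within 0.0001 cycles, for 315 of 316 assays (18S has the opposite sign), linear ratios to 5S rRNA, and a table of group mean ratios and their fold. Raw Ct columns were matched to titled samples through this equality, and 7 columns repeating the 5S rRNA Ct were not used. The sources used here do not name the threshold software. PCR levels have no molecule counts, so precision comes from the spread between samples.

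Groups came from sample titles. The 103 miRNAs detected (Ct below 35) in 3 or more samples were fitted with limma 3.58.1 in R 4.3.3 (lmFit, eBayes, two-sided) and adjusted by Benjamini-Hochberg, after the procedure was tested on simulated data. Single values had exact permutation tests. Other references, filters, treatments of late Ct, variance models, left-out samples and a replicate block were tried. The members and the miRNA lists (epithelial, other keratinocyte biology, and cell type markers) were chosen with earlier results of these data known. Named miRNAs are the members, the 4 nearest profiles of each, any sharing their seed, and the 2 keratinocyte lists. Matplotlib drew the figures, and 9 of the named miRNAs were looked up in RefSeq, of which 6 are printed.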

Additional observations from a re-analysis of the deposited data

How the results depend on the processing

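miR-203 had a lower mean in ischemic samples under every setting run. Over samples left out in turn its difference ran from -2.08 to -1.002 and was called only without ischemic sample 3 (-2.08, adjusted p = 0.0146 in limma). The linear fold of group means was -1.12 as log2, and an exact permutation test of its level gave p = 0.0857. The difference of miR-205 was called under no setting, and an exact permutation test gave p = 0.971. Its main value of -0.05 changed sign with the global mean (0.28), global median (0.31) and quantile (0.35) reference, on raw Ct (0.0705) and against snoRNA without snoRNA202 (0.0436), an alternative chosen after seeing the data. Over samples left out in turn it ran from -0.60 to 0.20, with positive values without non-ischemic sample 1 (0.04), 2 (0.20) or 4 (0.15) and without ischemic sample 3 (0.07). The difference of miR-203 minus miR-205 ran from -2.15 to -0.84 over samples left out and was -1.23 with late Ct set to 35. The number of called miRNAs was 0 with all 7 samples (19 at an unadjusted p under 0.05), 1 with the global median and with the quantile reference, and 0 to 8 over samples left out, with 8 without ischemic sample 3. Among the named miRNAs, miR-21 and miR-374-5p turned from -0.46 and -0.33 to 0.57 and 0.0702 without ischemic sample 3. Comparisons that leave out 1 sample have only 2 or 3 samples in a group, and a Ct near 35, where miR-205 lies, is read least precisely.

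The labels do not state that replicate numbers pair samples, so the numbers were not taken as pairs. Over the 103 miRNAs, deviations of same-numbered samples from their group means correlated at -0.08, -0.30 and -0.11. Differently numbered ones ranged from -0.43 to 0.41, so these correlations cannot decide whether the samples are paired. With the replicate block the difference was -1.30 for miR-203 (adjusted p = 0.559 in limma), 0.15 for miR-205 and -1.45 for miR-203 minus miR-205, and 0 miRNAs were called.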
